A study of Arabidopsis thaliana with 18 samples.

Results

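The genes followed here stand at the start of salicylic acid defence in Arabidopsis thaliana. They are ICS1, EDS5, EDS1, PAD4 and SAG101, measured by 5 of the 22810 probe sets of the ATH1 array. They were taken by probe set: 262177_at for ICS1 (AT1G74710, named EDS16 in RefSeq), 252921_at for EDS5 (AT4G39030), 252373_at for EDS1 (AT3G48090), 252060_at for PAD4 (AT3G52430) and 246600_at for SAG101 (AT5G14930). The gene table given for the array names 1 of these 5 probe sets, SAG101, and the loci of the other probe sets come from the definition of the gene set. RNA came from plants of the accession Est, 9 arrays from plants that received silwet, a wetting agent, at 0.02%, and 9 from plants that received 0.3 mM SA, which is salicylic acid in plant defence work. Numbers in the titles run from 37 to 54 and fall into 6 runs of 3 arrays, each run holding replicate numbers 1, 2 and 3 of 1 treatment. The silwet runs are titles 37 to 39, 40 to 42 and 43 to 45, and the SA runs are titles 46 to 48, 49 to 51 and 52 to 54. The labels used here give neither the tissue nor the plant age and harvest time, nor what separates the runs or which SA run belongs with which silwet run. Nothing says that each array had plants of its own, so the p-values reflect only the scatter of these samples, part of which may be technical.

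ICS1 is the chloroplast enzyme that turns chorismate into isochorismate, the precursor of most pathogen-induced salicylic acid in Arabidopsis. EDS5 is the transporter of the chloroplast envelope that carries isochorismate to the cytosol. EDS1, PAD4 and SAG101 are related lipase-like proteins: EDS1 binds either PAD4 or SAG101, and these pairs relay signals from intracellular immune receptors, the PAD4 pair being tied to basal resistance and to salicylic acid accumulation. Salicylic acid is known to feed back on this node, which makes these genes both upstream and downstream of the hormone.

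Values are MAS5 signals, a linear brightness that was scaled to the same trimmed mean on every array, and differences are on the log2(signal + 16) scale, which understates changes of dim probe sets. All 5 probe sets passed the filter on dim probe sets, with mean signals between the 57.1 and 85.8 percentiles of the array. The 5 probe sets measure with different sensitivity, so their levels are not set against each other. Array medians ran from 27.4 to 35.7 over the 18 arrays. Titles 40, 43 and 52 stood apart in an earlier look at these data, and without them the counts of the 5 genes called between treatments (0), among the SA runs (4) and in SA 46 to 48 against each silwet run (0) were those given below. Of photosynthesis genes chosen as leaf markers 3 of 12 were named on the array (RCA, LHCB4.2 and PRK), and their summed signal ran from 4592 to 5486 in SA titles 46 to 48, from 6497 to 7323 in SA 49 to 51 and from 4912 to 7905 in SA 52 to 54, against 5921 to 8253 in the silwet arrays. Of the root genes 2 of 8 were named (the root hair genes EXPA7 and EXPA18), with summed signals between 7.92 and 28.9 on all arrays. Of the flower and seed genes 0 of 7 were named.

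ICS1 passed no test between the treatments or the runs, and its level went with the replicate number. Its signals in silwet were 101, 74.0 and 174 on titles 37 to 39, 71.1, 73.0 and 145 on titles 40 to 42, and 90.7, 89.3 and 174 on titles 43 to 45, in the order of replicates 1, 2 and 3. In SA they were 95.2, 86.9 and 285.03 on titles 46 to 48, 78.5, 102 and 114 on titles 49 to 51, and 57.7, 63.2 and 177 on titles 52 to 54. The third replicate was the brightest array in every run, and the runs of both treatments overlapped. Run means in log2 ran only from 6.70 ± 0.78 (SD, n = 3) in SA 52 to 54 to 7.24 ± 0.86 (SD, n = 3) in SA 46 to 48.

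EDS5 was bright in 1 SA run and, less evenly, in 1 silwet run. Its silwet signals were 288.1, 166 and 500.2 on titles 37 to 39, 101, 134 and 194 on titles 40 to 42, and 153, 149.9 and 176 on titles 43 to 45. Its SA signals were 329.2, 442 and 624 on titles 46 to 48, 110.4, 195 and 142 on titles 49 to 51, and 106, 102 and 192 on titles 52 to 54. The 3 arrays of SA 46 to 48 lay above the other 6 SA arrays, whose highest signal was 195, but overlapped silwet 37 to 39. Run means in log2 were 8.86 ± 0.45 (SD, n = 3) in SA 46 to 48 and 8.26 ± 0.75 (SD, n = 3) in silwet 37 to 39, and between 7.17 and 7.45 in the other 4 runs.

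EDS1 varied within the runs as well as between them. Its silwet signals were 151, 105 and 181 on titles 37 to 39, 119.8, 41.2 and 134 on titles 40 to 42, and 182, 119.6 and 132 on titles 43 to 45. Its SA signals were 222, 139 and 265 on titles 46 to 48, 75.6, 60.1 and 58.9 on titles 49 to 51, and 138, 55.1 and 111 on titles 52 to 54. The lowest array of SA 46 to 48, at 138.6, lay just above the highest of the other SA arrays, at 137.9, and below 3 silwet arrays. Run means in log2 ran from 6.33 ± 0.16 (SD, n = 3) in SA 49 to 51 to 7.77 ± 0.44 (SD, n = 3) in SA 46 to 48.

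PAD4 was the steadiest of the genes in the bright SA run. Its silwet signals were 169, 102 and 196 on titles 37 to 39, 87.0, 128 and 123 on titles 40 to 42, and 138, 130.2 and 181 on titles 43 to 45. Its SA signals were 231, 219.6 and 212 on titles 46 to 48, 97.2, 101 and 125 on titles 49 to 51, and 118, 83.7 and 149 on titles 52 to 54. All 3 arrays of SA 46 to 48 lay above each of the other 15 arrays, the closest being 212 against 196. Run means in log2 were 7.89 ± 0.06 (SD, n = 3) in SA 46 to 48, 6.94 ± 0.17 (SD, n = 3) in SA 49 to 51 and 7.02 ± 0.36 (SD, n = 3) in SA 52 to 54.

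SAG101 also had its highest signals in SA 46 to 48. Its silwet signals were 57.4, 41.0 and 47.4 on titles 37 to 39, 56.6, 26.9 and 51.1 on titles 40 to 42, and 60.3, 47.7 and 54.4 on titles 43 to 45. Its SA signals were 73.6, 62.4 and 86.9 on titles 46 to 48, 44.7, 31.7 and 28.0 on titles 49 to 51, and 54.8, 30.5 and 45.6 on titles 52 to 54. All 3 arrays of SA 46 to 48 again lay above the other 15, with 62.4 against 60.3 at the border. PAD4 and SAG101 were the 2 of 5 genes with this separation, which 5.55% of the 17059 probe sets tested also had.

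**Figure D1:**
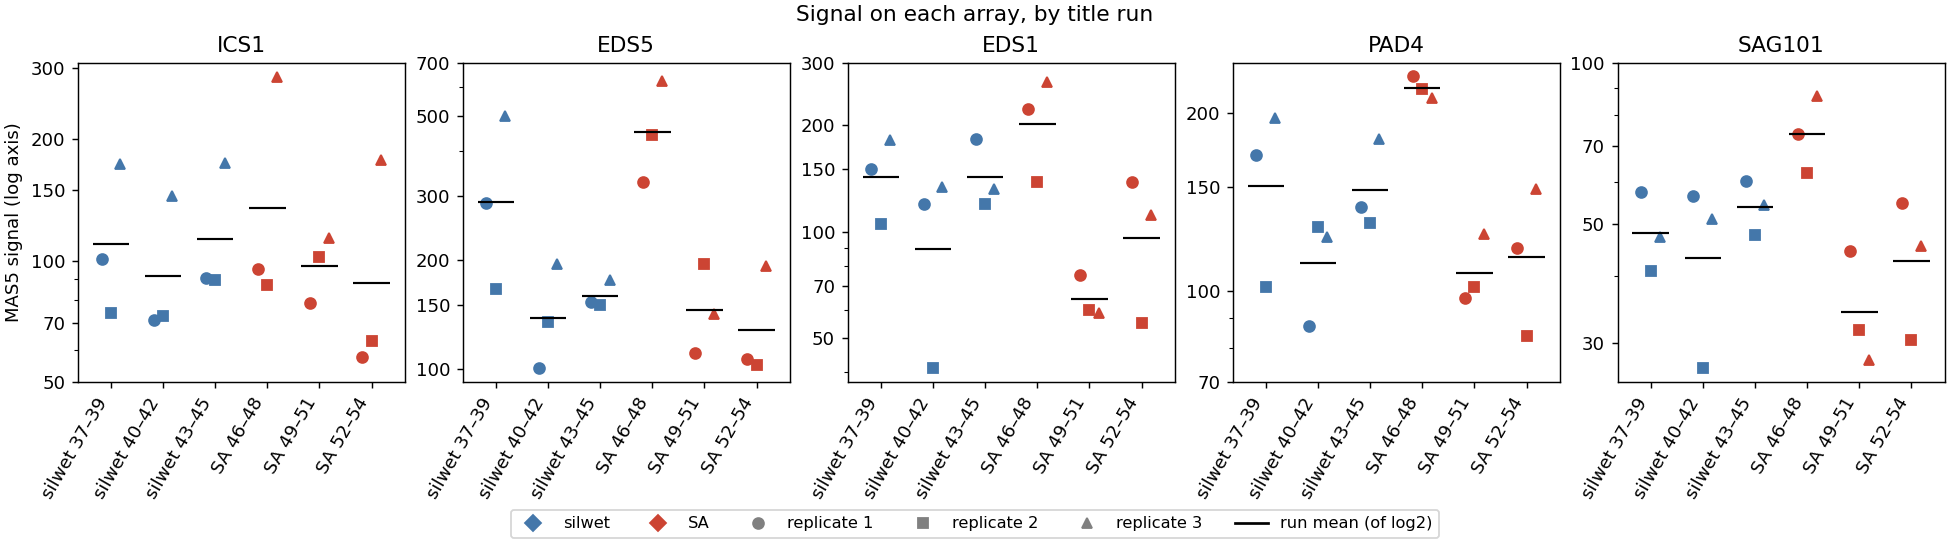
MAS5 signal on a log axis for each of the 5 genes in the 6 title runs, with 1 point per array (symbols give the replicate number) and a bar at the run mean. PAD4 and SAG101 in SA 46 to 48 sit above the other 15 arrays, whereas ICS1 splits by replicate number inside every run.

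Over all 9 SA and 9 silwet arrays none of the 5 genes passed the test of SA against silwet. The difference, SA minus silwet, was 0.01 (SE 0.24) for ICS1, 0.13 (SE 0.33) for EDS5, -0.14 (SE 0.28) for EDS1, 0.04 (SE 0.19) for PAD4 and -0.003 (SE 0.16) for SAG101, and the adjusted p from limma was 0.9998 for each. The 95% intervals reached from -0.55 to 0.81 for EDS5 and from -0.72 to 0.43 for EDS1, so this fit does not exclude differences within them. They are not a limit of detection, since a call after adjustment over 17059 probe sets needs more than an interval clear of 0. SAG101 had the narrowest interval, from -0.34 to 0.33. This fit takes the 9 arrays of each treatment as independent, although they fall into runs, so the intervals do not allow for the runs. Of all 17059 probe sets 0% were called higher and 0% lower, with 233 at an unadjusted p under 0.05, none of the 5 genes among them. In bulk RNA, fewer cells of a type and less RNA per cell cannot be told apart.

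The 3 SA runs differed from each other for EDS5, EDS1, PAD4 and SAG101, and ICS1 did not pass. EDS5 had the widest span of run means, 1.69 (3.23-fold; limma F-test, adjusted p = 0.00146), followed by EDS1 with 1.44 (2.71-fold; adjusted p = 0.0111). PAD4 spanned 0.94 (1.92-fold; adjusted p = 0.00624) and SAG101 0.84 (1.78-fold; adjusted p = 0.0138). ICS1 spanned 0.54 with an adjusted p of 0.590, or of 0.113 with the replicate number as a block (limma F-test). These are 4 of 5 genes where 24.6% of all probe sets were called, and the median span of the genes was 0.94 against 0.39 over all probe sets tested. Without replicate 2 EDS5 and EDS1 passed, and PAD4 (adjusted p = 0.0716) and SAG101 (0.0524) did not. Without replicate 3 EDS5 and PAD4 passed, and EDS1 (0.187) and SAG101 (0.272) did not. Without titles 46 to 48 none of the 4 passed. EDS1 also lost it without titles 49 to 51 (adjusted p = 0.0626), and PAD4 without replicate 1 (adjusted p = 0.0676).

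Titles 46 to 48 were the high run for all 4 genes. Against SA 49 to 51, EDS5 was 2.89-fold higher (log2 difference 1.53, SE 0.33, adjusted p = 0.0025 from limma), EDS1 2.71-fold (1.44, SE 0.34, adjusted p = 0.0045), PAD4 1.92-fold (0.94, SE 0.22, adjusted p = 0.0047) and SAG101 1.78-fold (0.84, SE 0.21, adjusted p = 0.0062). ICS1, the synthesis enzyme, differed by 0.42 (SE 0.42, adjusted p = 0.524). These calls are set against 11.8% of all probe sets called higher in that contrast. Against SA 52 to 54, EDS5 was 3.23-fold higher (1.69, adjusted p = 0.0012), EDS1 1.95-fold (0.96, adjusted p = 0.0438), PAD4 1.82-fold (0.86, adjusted p = 0.0083) and SAG101 1.53-fold (0.61, adjusted p = 0.0366), where 13.3% of probe sets were called higher. ICS1 differed by 0.54 there (adjusted p = 0.377 from limma, or 0.0557 with the replicate number as a block). The EDS1 call against SA 52 to 54 was lost with an offset of 1 (adjusted p = 0.0547) and without the filter (adjusted p = 0.0642), and that of SAG101 without the filter (adjusted p = 0.0549). Without replicate 3 EDS1 and SAG101 lost both calls (adjusted p from 0.115 to 0.238), without replicate 2 PAD4 (0.105) and SAG101 (0.140) lost that against SA 52 to 54, and without replicate 1 PAD4 lost that against SA 49 to 51 (0.0517) and EDS1 that against SA 52 to 54 (0.0699). EDS5 kept both calls whichever replicate was left out. The arrays of both runs compared did not overlap for any of the 4 genes and overlapped for ICS1. The share of all probe sets without overlap was not counted, so this only describes the arrays. By limma 5974 probe sets had an unadjusted p under 0.05 against SA 49 to 51 and 6432 against SA 52 to 54, in either direction. SA 49 to 51 and SA 52 to 54 did not differ for any of the genes, and 0% of probe sets were called higher and 0% lower between them, with 652 at an unadjusted p under 0.05.

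Set beside the silwet runs, the outcome depended on which silwet run was used. Against silwet 40 to 42, EDS5 (3.02-fold, log2 difference 1.59, adjusted p = 0.0031), EDS1 (2.07-fold, 1.05, adjusted p = 0.0380) and PAD4 (1.86-fold, 0.89, adjusted p = 0.0095) were higher in SA 46 to 48, while 9.95% of probe sets were called higher. The EDS1 call was lost without any 1 of the replicates (adjusted p from 0.0710 to 0.149) and without the filter (0.0570), that of PAD4 without replicate 1 (0.116) and that of EDS5 without replicate 2 (0.0510). SAG101 differed by 0.60 with an adjusted p of 0.0521, and with the replicate number as a block it passed (adjusted p = 0.0080, with 12.7% of probe sets called higher). Against silwet 43 to 45 EDS5 alone passed (2.66-fold, 1.41, adjusted p = 0.0069; 0.0765 without replicate 2), where 8.46% of probe sets did. Against silwet 37 to 39 none of the 5 passed, where 1.58% of probe sets did, although all 5 means were higher in SA 46 to 48, by 0.26 for ICS1, 0.61 for EDS5, 0.46 for EDS1, 0.51 for PAD4 and 0.48 for SAG101. The same SA arrays enter all 3 contrasts.

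When a call had to hold against every silwet run, by 1 sign and by the largest of the 3 p-values, none of the 5 genes was called in SA 46 to 48. The smallest of the 3 differences was 0.23 for ICS1 (adjusted p = 1), 0.61 for EDS5 (adjusted p = 0.602), 0.46 for EDS1 (adjusted p = 0.900), 0.51 for PAD4 (adjusted p = 0.377) and 0.36 for SAG101 (adjusted p = 0.653), all from limma. All 5 were positive, with a median of 0.46 against -0.01 over all probe sets tested, of which 1% were called higher. PAD4 alone had an unadjusted p under 0.05 against all 3 silwet runs, and with the block 3 of the genes did, still with 0 called where 2.24% of probe sets were. Leaving out silwet 37 to 39 brought EDS5 to a call (difference 1.41, adjusted p = 0.00421). In SA 49 to 51 and in SA 52 to 54 none of the 5 genes was called against each silwet run, and 0% of probe sets were called higher and 0% lower in either, with 202 and 98 at an unadjusted p under 0.05.

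**Figure D2:**
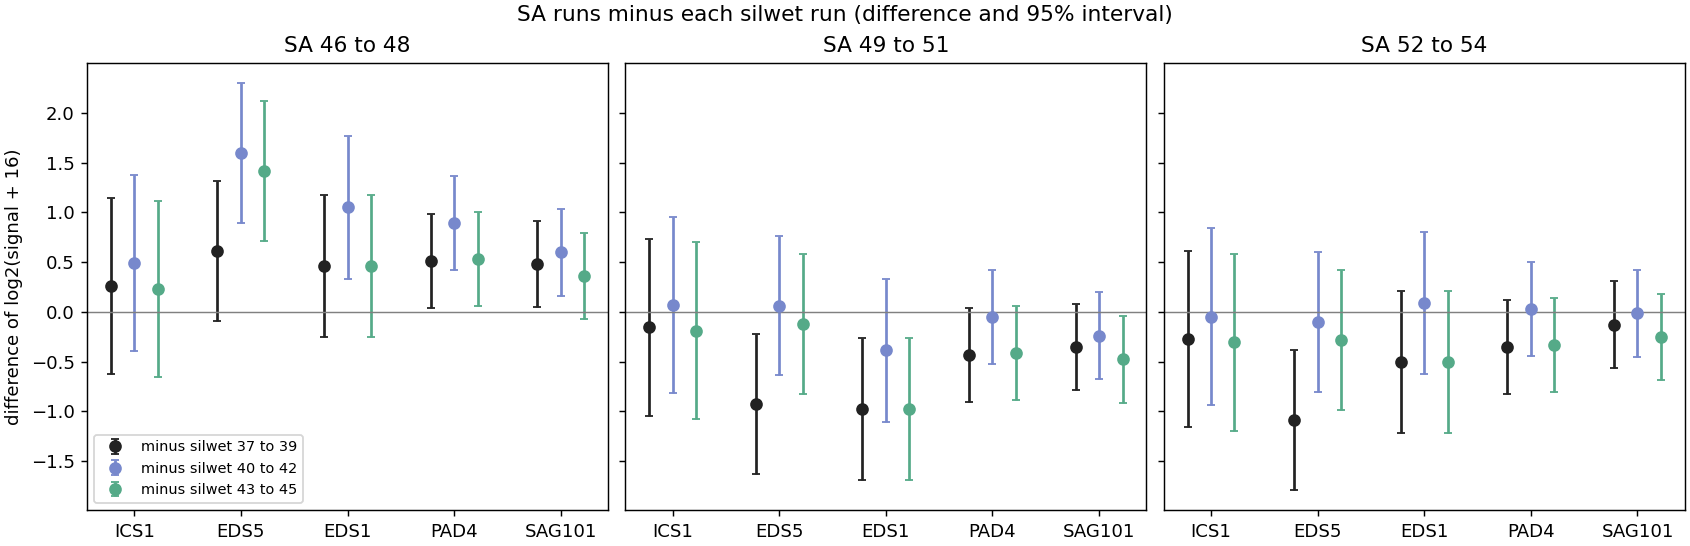
Log2 difference of each SA run minus each silwet run for the 5 genes, with points at the estimate and bars for the 95% interval from limma. The differences of SA 46 to 48 are above 0 for all 5 genes, and those of the other SA runs against silwet 37 to 39 and against silwet 43 to 45 are below 0.

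Silwet 37 to 39 was the silwet run nearest to SA 46 to 48 for EDS5, where its mean was 0.80 above that of silwet 43 to 45. For EDS1 and PAD4 these 2 silwet runs were almost level, silwet 37 to 39 being higher by 0.001 and 0.02. Among the silwet runs none of the 5 genes passed, where 1.61% of probe sets did (2666 at an unadjusted p under 0.05), with adjusted p = 0.229 for EDS5 and between 0.492 and 0.916 for the other genes. EDS5 was 0.98 higher in silwet 37 to 39 than in silwet 40 to 42 (adjusted p = 0.120, with 1.84% of probe sets called higher), which passed with the block (adjusted p = 0.0279, 4.12% called higher). The other SA runs lay below silwet 43 to 45 for all 5 genes, with EDS1 in SA 49 to 51 at -0.98 (adjusted p = 0.656 from limma). They also lay below silwet 37 to 39 for all 5 genes. In SA 49 to 51 EDS5 was at -0.92 (adjusted p = 0.145) and EDS1 at -0.98 (adjusted p = 0.126), with 2.76% of probe sets called lower, and both passed with the block (adjusted p = 0.0336 and 0.0105, with 4.95% called lower). In SA 52 to 54 EDS5 was at -1.08 (adjusted p = 0.0611, with 4.22% called lower), which also passed with the block (adjusted p = 0.0114, 7.81% called lower).

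The order of the run means was headed by SA 46 to 48 for all 5 genes. EDS1 and PAD4 shared 1 order: silwet 37 to 39, silwet 43 to 45, SA 52 to 54, silwet 40 to 42 and last SA 49 to 51. For SAG101 silwet 43 to 45 came second and SA 49 to 51 last, and for ICS1 and EDS5 SA 52 to 54 came last. No step between neighbours in these orders passed the test, the smallest adjusted p being 0.258 for SAG101 between SA 46 to 48 and silwet 43 to 45.

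Replicate numbers differed for ICS1, EDS1 and SAG101 by the F-test, and for EDS5 in 1 pair of numbers. This test, with runs as blocks, was added after the values were seen, so its results describe a pattern already visible in these arrays. ICS1 was 1.93-fold higher in replicate 3 than in replicate 1 (log2 difference 0.95, SE 0.15, adjusted p = 0.00159, where 3.24% of probe sets were called higher) and 1.95-fold higher than in replicate 2 (0.96, adjusted p = 0.00779, where 0.293% were). Its 6 arrays of replicate 3 had signals of 114 to 285.03 with a median of 174. Those of replicates 1 and 2 lay between 57.7 and 102, so replicate 3 did not overlap them. The share of all probe sets with this separation was not counted. Replicate 3 was the highest array of its run in 6 of 6 runs for ICS1, as for 0.926% of probe sets, and in 5 of 6 for EDS5. EDS5 was 1.55-fold higher in replicate 3 than in replicate 1 (0.63, SE 0.18, adjusted p = 0.0383), and its difference from replicate 2 was 0.51 (adjusted p = 0.216).

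EDS1 and SAG101 were instead low in replicate 2, the lowest array in 5 of 6 runs for each. EDS1 was lower in replicate 2 than in replicate 1 by a log2 difference of -0.71 (SE 0.15, adjusted p = 0.0144) and SAG101 by -0.42 (SE 0.11, adjusted p = 0.0277), where 5.05% of probe sets were called lower. Replicate 3 against replicate 2 did not pass for EDS1 (0.65, adjusted p = 0.0712) or SAG101 (0.27, adjusted p = 0.276). Over the 3 numbers, the F-test called ICS1 (adjusted p = 0.00132), EDS1 (adjusted p = 0.0134) and SAG101 (adjusted p = 0.0441), and 9.89% of all probe sets. EDS5 had an adjusted p of 0.0542 and PAD4 of 0.162. The SAG101 call was lost with quantile normalization (adjusted p = 0.0618) and without the filter (adjusted p = 0.0712), and EDS5 gained one with the filter at the median (adjusted p = 0.0488) and with array weights (adjusted p = 0.0242). Without titles 40, 43 and 52, all of replicate 1, the F-test calls of EDS1 (adjusted p = 0.0814) and SAG101 (0.215) were lost, and ICS1 kept its call (0.0159). In the silwet arrays alone ICS1 still passed (adjusted p = 0.0411), and in the SA arrays alone it did not (span 1.096, adjusted p = 0.355). Array medians and the 3'/5' ratio of GAPDH, a measure of RNA integrity, overlapped between numbers: medians ran from 29.9 to 35.7 in replicate 1, from 27.4 to 35.1 in replicate 2 and from 30.1 to 34.2 in replicate 3, and log2 GAPDH ratios from -0.07 to 0.54, from -0.30 to 0.87 and from -0.30 to 0.22. Log2 3'/5' ratios of actin were higher and overlapped between numbers too. They ran from 1.099 to 2.54 in replicate 1, from 1.23 to 2.52 in replicate 2 and from 1.65 to 2.68 in replicate 3. The part of the medians and of both ratios in the result was not tested.

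**Figure D3:**
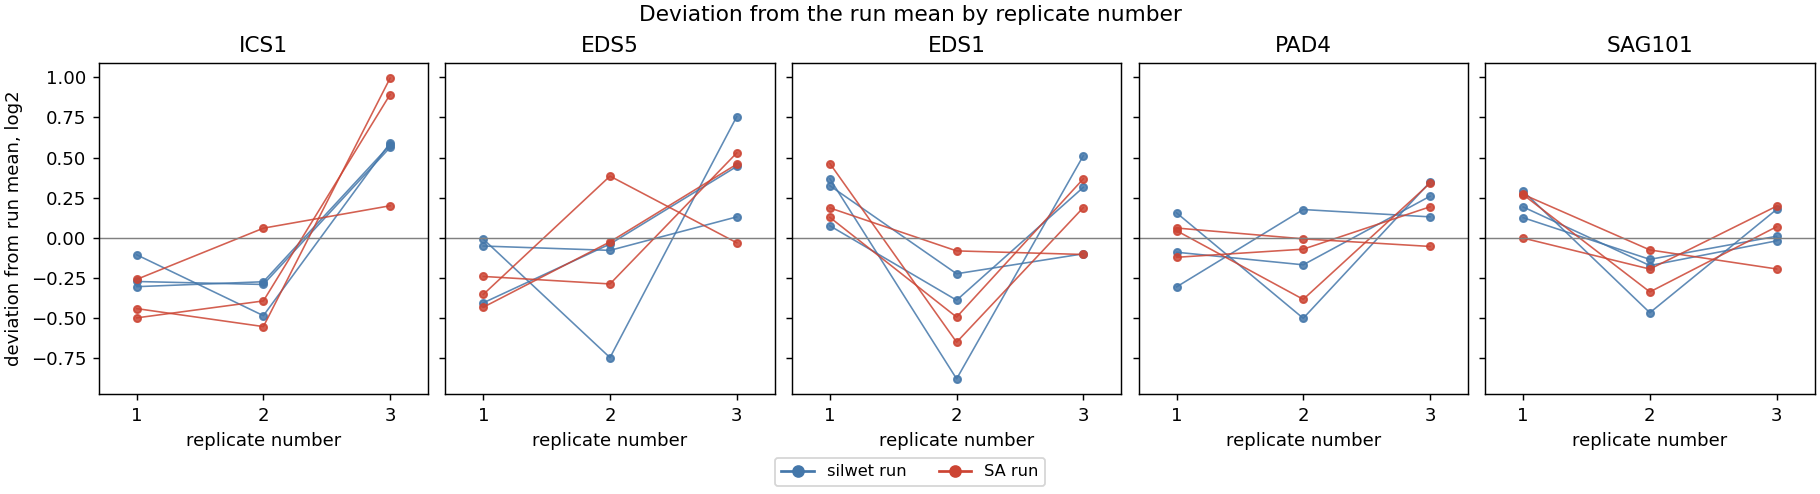
Deviation of each array from its run mean (log2) by replicate number, 1 panel per gene and 1 line per run, silwet runs in blue and SA runs in red. ICS1 is highest in replicate 3 in 6 of 6 runs, and EDS1 and SAG101 are lowest in replicate 2 in 5 of 6.

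Within runs EDS1 went closely with SAG101, and ICS1, EDS5 and PAD4 went with each other less closely. EDS1 and SAG101, whose proteins bind each other, had a Pearson r of 0.94 over the 18 arrays and of 0.91 after run means were taken out, and the 4 lowest arrays of both were titles 41, 50, 51 and 53. Array medians there were 27.4, 32.6, 30.1 and 31.7, against 27.4 to 35.7 over all arrays, and their part in the pairing was not tested. ICS1 and EDS5, synthesis and export of isochorismate, had an r of 0.67 over arrays and 0.82 within runs. PAD4 had an r of 0.85 over arrays and 0.69 within runs with EDS5, and of 0.59 and 0.58 with ICS1. Its r with SAG101 was 0.63 over arrays and 0.07 within runs. With EDS1, the partner its protein binds, PAD4 had 0.69 over arrays and 0.24 within runs. The arrays share their scaling, the runs and the replicate numbers, so these values are descriptions. Taking out run means leaves the replicate pattern. EDS1 and SAG101 were both lowest in replicate 2 in 5 of 6 runs, and replicate 3 was highest in 6 runs for ICS1 and 5 for EDS5. The part of this pattern in the r values was not tested.

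**Figure D4:**
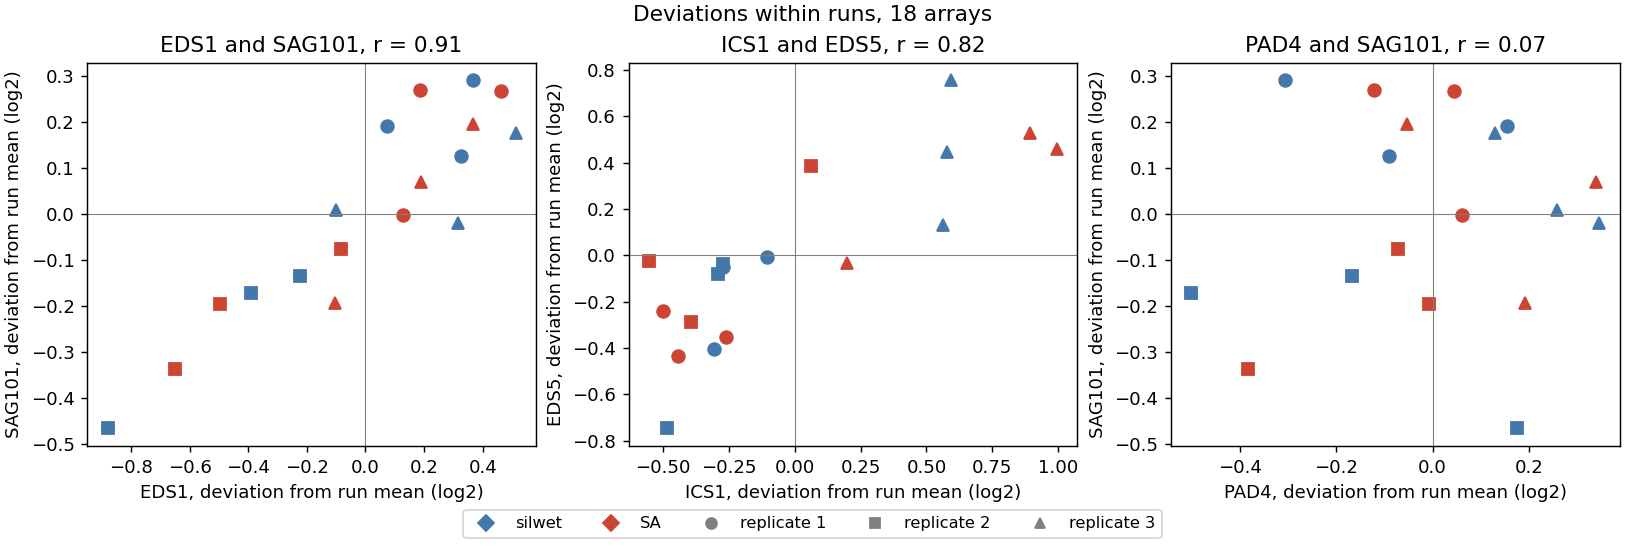
Deviations from the run mean (log2) of 1 gene against another, 1 point per array, for EDS1 with SAG101 (r = 0.91), ICS1 with EDS5 (0.82) and PAD4 with SAG101 (0.07). The first pair lies close to a line, whereas the points of the third pair are scattered.

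Likeness over the 18 arrays was read among 9496 probe sets with 1 named gene, the 5 genes themselves left out. The probe sets most like each gene differed from gene to gene. For EDS5 they were BIK1, a receptor-like cytoplasmic kinase of pattern-triggered immunity (r = 0.95, 0.84 within runs), AT4G37900 (0.95 and 0.81) and AT4G03450 (0.94 and 0.81). For EDS1 they were AT4G16660 (0.96 and 0.94), LOV1, an intracellular immune receptor gene (0.95 and 0.91), and AT1G69730 (0.94 and 0.93). For ICS1 they were AT2G46150 (0.85 and 0.91), AT5G49760 (0.84 and 0.87) and cwINV6 (0.84 and 0.84). For PAD4 they were AT2G34250 (0.91 and 0.81), AT4G31170 (0.91 and 0.76) and AT2G21230 (0.89 and 0.80), and for SAG101 AT5G16880 (0.94 and 0.94), AT1G03290 (0.94 and 0.87) and AT3G52240 (0.93 and 0.94). No probe set appears under more than 1 of the 5 genes, but only the first 3 per gene were listed and lower ranks were not compared. Among the 5 genes themselves, EDS1 had an r of 0.938 with SAG101, above the 0.933 of AT3G52240.

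AT3G48080, the locus next to EDS1 in the RefSeq gene table, had a dim probe set of its own (252403_at). Its signals were 34.7 to 35.7 in SA 46 to 48, against 10.1 to 30.9 on the other 15 arrays, which it cleared as PAD4 and SAG101 did. Whether EDS1 transcripts reach that probe set, or AT3G48080 transcripts that of EDS1, was not tested.

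Other genes of salicylic acid defence were read from 4 lists of 52 loci, 7 of which had a tested probe set of 1 gene. In SA 46 to 48 against each silwet run 4 of the 7 rose, where 1% of all probe sets were called higher and 0 of the 5 genes above were. The lists were chosen with earlier results of these data known, so this count is a description and not independent support. UGT76B1, a glycosyltransferase that acts on salicylic acid and related defence signals, had a smallest difference of 2.73 (adjusted p = 0.00275 from limma), WRKY53, a transcription factor of defence and senescence, of 1.49 (adjusted p = 0.0144), GRX480, a glutaredoxin induced by salicylic acid, of 1.28 (adjusted p = 0.00835), and AT5G52810 of 1.14 (adjusted p = 0.0265). GH3.5, which joins amino acids to auxin and salicylic acid, had 0.79 (adjusted p = 0.234), and BSMT1, which makes methyl salicylate, -0.24 (adjusted p = 1). EIN3, an ethylene transcription factor known to repress ICS1, had no common sign. The 4 calls fell to 3 without replicate 1, where AT5G52810 lost its call (adjusted p = 0.0700), and to 0 without replicate 2 and 0 without replicate 3. The differences stayed near their size in those settings, with 2.60 and 2.62 for UGT76B1 and 1.101 and 1.38 for GRX480 without replicates 2 and 3. The median smallest difference of the 7 was 1.14 against -0.01 over all probe sets. By the F-test 6 of the 7, EIN3 being the exception, differed among the SA runs, where 24.6% of probe sets did. Among the silwet runs 3 of the 7 differed too, where 1.61% of probe sets did: UGT76B1 (adjusted p = 0.0202), WRKY53 (adjusted p = 0.0215) and BSMT1 (adjusted p = 0.0171).

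Of the other genes read as markers, PRK and SAG29 differed between runs. PRK, a Calvin cycle enzyme, fell in SA 46 to 48 against each silwet run (smallest difference -0.57, adjusted p = 0.0301), whereas RCA (-0.11, adjusted p = 1) and LHCB4.2 (-0.24, adjusted p = 1) did not pass. The summed photosynthesis signal of that run lay below all silwet arrays. SAG29, the 1 of 6 senescence genes named, passed the F-test among the SA runs (adjusted p = 0.000408) and among the silwet runs (adjusted p = 0.000809). It had signals of 6.13 to 14.5 in SA 46 to 48 and of 4.02 to 8.41 in silwet 37 to 39, the runs in which EDS5 was brightest, and of 34.6 to 340 in the other 4 runs. GAPDH log2 ratios ran from -0.30 to 0.30 in SA 46 to 48, from 0.16 to 0.24 in SA 49 to 51 and from 0.20 to 0.87 in SA 52 to 54. Actin log2 3'/5' ratios ran from 1.099 to 2.52 in SA 46 to 48. In SA 49 to 51 they ran from 1.23 to 2.60, and in SA 52 to 54 from 1.73 to 2.54. The part of these values in the differences of EDS5, EDS1, PAD4 and SAG101 was not tested.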

How the data were processed

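The authors deposited 1 intensity signal per probe set and array. MAS5 is the tool named in the submitters' processing notes, with no version or settings given. Per the labels, biotin-labelled total RNA was hybridised to 18 ATH1 arrays. Leaving out 2% of probe sets at each end, every array's mean signal lay between 100.008 and 100.01, so shifts in total RNA are hidden, and dim signals are noisy. Here 64 control probe sets and those under the 25th percentile of mean signal were dropped, leaving 17059. Values were log2(signal + 16), tested with limma 3.58.1 in R 4.3.3 (empirical Bayes with a variance trend), with Benjamini-Hochberg adjustment over all probe sets tested and a threshold of 0.05. SA was set against silwet over 9 arrays each, and a fit of the 6 runs of titles gave the run contrasts. A call against each silwet run needed 1 sign and used the largest of the 3 p-values. The number of arrays limits the precision.

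The genes, lists and tests were chosen with earlier results of these data known. The text names the 5 genes, every tested locus of the 4 pathway lists and the 3 most similar probe sets per gene. AT3G48080 and the replicate-number test were added after values were seen. Replicate numbers were taken to pair arrays of SA and silwet, because deviations of same-numbered arrays correlated at 0.757, 0.563 and 0.645 for numbers 1, 2 and 3; the fit with the number as a block is an alternative. Other alternatives were the offset (1, 64), quantile normalization, the filter, array weights, no variance trend, a random block for runs, and leaving out replicates, runs or titles 40, 43 and 52. The gene table names 13513 probe sets with 1 gene and 503 with several. Symbols follow RefSeq (TAIR10.1). Scripts were tested on simulated data. Figures used matplotlib 3.10.9 (Python 3.11.15).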

Additional observations from a re-analysis of the deposited data

Results flagged for a closer look

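Among the 9 silwet arrays the EDS1 level of title 41, the second replicate of titles 40 to 42, stood apart from the others. Its log2 level was 5.84 (signal 41.2), the next lowest being 6.92, and this gap took 0.603 of the range of the group, above the 95% critical value of Dixon's test for 9 samples. It was the 1 value that stood apart among 10 groups examined (5 genes in 2 treatments), and chance gives about 1 in 20 groups. The array also had the lowest median signal of the 18, 27.4, and the lowest SAG101 signal, 26.9. The part of the array's median in this value was not tested.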

How the results depend on the processing

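With 3 arrays per run, small differences were not detectable, and MAS5 scaling hides changes of total RNA. SA against silwet called 0 of the 5 genes in every setting tried, and the sign of these uncalled differences varied; the cause was not tested. With 1 replicate left out it ran from -0.0505 to 0.0946 for ICS1, from -0.0254 to 0.224 for EDS5 and from -0.0310 to 0.0127 for SAG101. It turned for ICS1 to -0.0098 with array weights, -0.0727 without titles 40 to 42 and -0.150 without 46 to 48. For EDS5 it turned to -0.118 with array weights, -0.0636 without titles 40 to 42 and -0.406 without 46 to 48. For EDS1 it was 0.174 without titles 49 to 51. For PAD4 it was -0.0083 without titles 40, 43 and 52, -0.128 with array weights, -0.0849 without 40 to 42 and -0.260 without 46 to 48. For SAG101 it was 0.0073 with an offset of 64, 0.0343 with quantile normalization, 0.0392 without titles 40, 43 and 52, 0.0569 without 43 to 45, 0.173 without 49 to 51 and 0.0615 without 52 to 54.

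Among the SA runs 4 genes were called, 2 to 3 when 1 replicate was left out and 0 without titles 46 to 48. Against each silwet run SA 46 to 48 had 0 of the genes, and 1 without titles 37 to 39. Of the other pathway genes 4 were called, and 0 to 3 when 1 replicate was left out; BSMT1 then ran from -0.455 to 0.0071. The replicate-number test called 3 genes, but 1 without titles 40, 43 and 52, 1 without titles 40 to 42, 1 without 52 to 54, 1 in silwet arrays alone and 0 in SA arrays alone, where fewer arrays were tested. In it SAG101 also lost its call without titles 37 to 39 (adjusted p = 0.0938), 43 to 45 (0.104) or 46 to 48 (0.0595), and EDS5 gained one without 49 to 51 (0.0216). With the replicate block, 4 genes were called among the SA runs, 0 among the silwet runs, 0 for SA against silwet and 4 of the other pathway genes, as without it. Of 144 recomputed values of called run contrasts 126 kept their call and 18 lost it, and 0 changed sign.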
